A study of Homo sapiens with 8 samples.

Results

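Respiratory complexes II to V are described here through 39 genes of the cell nucleus that encode their subunits, in the human lymphoma line WSU-DLCL2. The members were chosen by gene symbol from a list of known subunits: 4 genes of complex II, 9 of complex III, 11 of complex IV and 15 of complex V. All 39 were found among the 60592 gene rows of the files, and all 39 were among the 12063 rows that passed the filter on low values and were tested. WSU-DLCL2 is an established line of diffuse large B-cell lymphoma. The 4 groups were FDX1-OE cells given elesclomol (FDX1-OE ES), FDX1-OE cells given the solvent DMSO (FDX1-OE DMSO), control cells given elesclomol (control ES) and control cells given DMSO (control DMSO). Elesclomol was used at 15 nM and all cells were harvested after 48 h, with 2 RNA sequencing libraries per group and 8 in all. FDX1-OE cells overexpress FDX1, and the labels call the control genotype WT. The labels do not say how FDX1 was overexpressed. They also leave unsaid whether replicate libraries were grown as separate cultures, so the p-values measure the spread between these libraries, which may be technical.

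Complexes II, III and IV pass electrons from succinate and from reduced ubiquinone to oxygen, and complexes III and IV pump protons across the inner mitochondrial membrane as they do so. Complex V, the ATP synthase, lets the protons flow back and makes ATP. Complex II is encoded wholly by nuclear genes, while complexes III, IV and V also hold subunits encoded by mitochondrial DNA. Elesclomol is a copper-binding drug that delivers copper to mitochondria, and FDX1 is a mitochondrial ferredoxin, a small iron-sulfur protein that hands electrons to other enzymes.

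The level of FDX1 bore out the labels. It was 60.7 and 59.4 FPKM in FDX1-OE ES and 59.8 and 56.0 FPKM in FDX1-OE DMSO, against 9.88 and 10.0 FPKM in control ES and 10.8 and 10.4 FPKM in control DMSO. FPKM, a fragment count scaled to gene length and library size, can be compared between genes. All 7 B cell markers examined were present, at 37.6 to 581 FPKM. The 9 T and NK cell markers, of which 5 were at 0 in every library, summed to 0.897 to 0.932 FPKM in FDX1-OE ES against 0.0243 to 0.0283 in FDX1-OE DMSO, with 0.168 to 0.170 in control ES against 0.0319 to 0.151 in control DMSO. The 7 myeloid markers, 3 of them at 0 in every library, summed to 0.366 to 0.638 FPKM in FDX1-OE ES against 0.0473 to 0.173 in FDX1-OE DMSO, with 0.252 to 0.389 in control ES against 0.0643 to 0.194 in control DMSO. Both FDX1-OE ES libraries stood apart from the other 6. Their FPKM totals were 408018 and 403024, against 445716 to 451027 in the others. Their 2 replicates also differed more: the median absolute log2 difference between replicates over the members was 0.182 in FDX1-OE ES, 0.0446 in FDX1-OE DMSO, 0.0841 for control ES and 0.0458 in control DMSO. Their part in the results was examined only through other scalings, library weights and leaving out libraries, as given below. What caused these differences was not tested.

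The promoters of the members were examined for sequence features they share. RefSeq windows (GRCh38.p14, 250 bases before to 50 after the start) were at hand for 31 of the 39 members. There was no entry for UQCRB, ATP5F1D, COX6C, SDHC, CYC1, ATP5F1B, ATP5MF and ATP5MC3. The motifs of 3 factors known to drive respiratory genes were searched on both strands: GCGCANGCG for NRF1, CCGGAAG for the ETS factors that include GABP, and AANATGGCG for YY1. The NRF1 motif was found in 12 of 37 member windows (32.4%), against 7.52% of all 35116 windows and 13.9% of the windows of tested genes. The ETS motif was found in 16 of 37 member windows (43.2%), against 10.3% of all windows and 19.1% of those of tested genes. The YY1 motif was found in 7 of 37 member windows (18.9%), against 3.19% and 6.86%. A match is a run of letters, not a shown binding site.

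The 250 bases before the start of 5 members are printed as examples from members with a window: 4 that fell in FDX1-OE cells under elesclomol and SDHA, which was called higher. Capitals mark motif matches, and each sequence reads 5′ to 3′ on the strand of its gene.
ATP5MC1, chr17:48892537-48892786, plus strand: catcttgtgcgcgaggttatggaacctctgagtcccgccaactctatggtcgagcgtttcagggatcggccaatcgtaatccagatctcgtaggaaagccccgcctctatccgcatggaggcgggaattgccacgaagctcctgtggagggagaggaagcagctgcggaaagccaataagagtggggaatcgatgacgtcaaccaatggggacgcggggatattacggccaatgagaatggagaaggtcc
ATP5ME, chr4:674277-674526, minus strand: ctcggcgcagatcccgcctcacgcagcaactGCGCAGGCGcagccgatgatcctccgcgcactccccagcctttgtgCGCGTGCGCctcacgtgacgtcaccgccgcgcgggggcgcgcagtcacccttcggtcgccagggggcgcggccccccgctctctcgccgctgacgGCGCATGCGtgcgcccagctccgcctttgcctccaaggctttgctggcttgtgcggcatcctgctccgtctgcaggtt
COX6B1, chr19:35648073-35648322, plus strand: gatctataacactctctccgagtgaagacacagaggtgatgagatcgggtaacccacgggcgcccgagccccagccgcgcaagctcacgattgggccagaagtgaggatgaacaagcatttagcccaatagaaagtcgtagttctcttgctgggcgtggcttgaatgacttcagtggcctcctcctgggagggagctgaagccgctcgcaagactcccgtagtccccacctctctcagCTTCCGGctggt
COX4I1, chr16:85799445-85799694, plus strand: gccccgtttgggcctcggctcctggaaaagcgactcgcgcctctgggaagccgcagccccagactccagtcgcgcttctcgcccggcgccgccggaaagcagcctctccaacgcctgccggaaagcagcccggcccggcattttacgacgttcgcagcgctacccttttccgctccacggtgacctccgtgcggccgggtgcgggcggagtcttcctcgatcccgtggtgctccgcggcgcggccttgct
SDHA, chr5:218070-218319, plus strand: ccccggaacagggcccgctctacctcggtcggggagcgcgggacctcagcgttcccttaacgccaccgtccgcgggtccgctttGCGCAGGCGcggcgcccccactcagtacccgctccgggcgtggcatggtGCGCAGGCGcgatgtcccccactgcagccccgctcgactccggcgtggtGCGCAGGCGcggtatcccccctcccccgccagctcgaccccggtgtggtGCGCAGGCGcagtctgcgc
ATP5ME carries the NRF1 motif at -219, -173 and -78 (the first base of the match, counted from the start) and SDHA carries it at -166, -117, -68 and -19. COX6B1 carries the ETS motif at -12. COX4I1 and ATP5ME carry the ETS motif just after the start, outside the printed bases. None of the 3 motifs is in the ATP5MC1 window.

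With elesclomol, FDX1-OE cells had lower levels of many complex V subunit genes. Of the 39 members, 19 were called lower and 3 higher in FDX1-OE ES than in FDX1-OE DMSO. Among all genes tested, 13.7% were called lower and 47.1% higher. Of the abundant tested genes (mean log2(FPKM + 1) of at least 5), 35.6% were called lower. That level is a floor met by 38 of the 39 members, not a match to their levels. Many members lie far above it, and the median fold change of all genes falls with level. The share of abundant genes called higher was not computed. A gene was called at an adjusted p below 0.05 in limma's test on log2(FPKM + 1) over all genes tested. The median log2 fold change of the members was -0.24, against 0.25 over all genes tested and -0.05 over the abundant ones. These counts depend on scaling: the split of higher and lower members was 4 and 12 after scaling to equal FPKM totals and 1 and 35 after median-ratio scaling. The median of all genes was then 0.37 and -0.05, so a fall is a statement relative to that median. In bulk samples, fewer cells of a kind and less RNA per cell cannot be told apart.

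By complex, complex V had 11 of 15 members lower and 0 higher, with a median log2 fold change of -0.33. Complex IV had 5 of 11 lower and 1 higher (median -0.19), and complex III had 3 of 9 lower and 0 higher (median -0.21). Of the abundant genes 35.6% were called lower, a share near those of complexes III and IV. Complex II had 0 of 4 lower and 2 higher, with a median of 0.24 beside 0.25 over all genes. After median-ratio scaling SDHB (-0.25) and SDHD (-0.35) were called lower. The summed FPKM of the complex V genes was 1861 ± 3.14 in FDX1-OE ES, 2456 ± 6.15 in FDX1-OE DMSO, 2378 ± 37.7 for control ES and 2380 ± 64.8 in control DMSO (SD, n = 2 each). For complex IV the sums were 1323 ± 180 FPKM in FDX1-OE ES against 1621 ± 15.2 in FDX1-OE DMSO, with 1706 ± 26.7 in control ES against 1588 ± 15.6 in control DMSO. For complex II the elesclomol sums were the higher, with 335 ± 15.3 FPKM in FDX1-OE ES, 275 ± 6.11 in FDX1-OE DMSO, 323 ± 4.94 for control ES and 279 ± 2.81 in control DMSO. Complex III sums were 674 ± 59.6 FPKM in FDX1-OE ES against 750 ± 7.11 in FDX1-OE DMSO, with 796 ± 30.3 in control ES against 743 ± 3.07 in control DMSO. Its FDX1-OE ES libraries lay below the other 6.

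**Figure D1:**
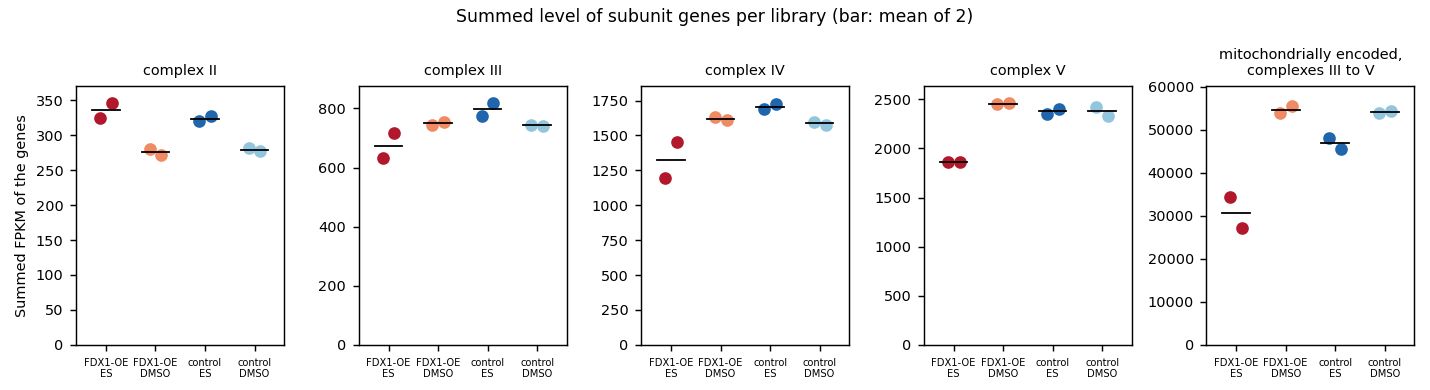
Summed FPKM of the nuclear-encoded subunit genes of each complex, and of the 6 mitochondrially encoded genes, in each library (points) with the mean of 2 (bar). For complex V the FDX1-OE ES libraries sat at 1859 and 1863, below the other 6 libraries, which sat at 2335 to 2460. For complex II the elesclomol libraries of both cell kinds sat above the DMSO libraries.

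Complex II oxidises succinate, with SDHA as the flavoprotein, SDHB the iron-sulfur subunit, and SDHC and SDHD the membrane anchors. SDHC measured 88.7 and 75.1 FPKM in FDX1-OE ES against 55.8 and 53.6 in FDX1-OE DMSO, with 63.3 and 70.1 in control ES against 56.5 and 53.8 in control DMSO. Both FDX1-OE ES libraries lay above all others, and SDHC was higher by 0.57 ± 0.09 (log2 fold change ± SE, adjusted p = 0.000865 by limma) in FDX1-OE ES than in FDX1-OE DMSO. It also stayed called after median-ratio scaling, where its log2 fold change was 0.23. SDHA measured 94.1 and 130.4 FPKM in FDX1-OE ES against 82.6 and 85.4 in FDX1-OE DMSO, with 109 and 97.2 in control ES against 81.6 and 88.4 in control DMSO. The 2 FDX1-OE ES libraries of SDHA were far apart, and replicate 2 was the highest of the 8. SDHA was called higher by 0.40 ± 0.14 (adjusted p = 0.0328), but without FDX1-OE ES replicate 2 the log2 fold change was 0.16, not called, and after median-ratio scaling 0.06, not called. SDHA was called under 11 of 18 alternative settings. SDHA has pseudogene rows that moved with it: SDHAP1 averaged 20.5 FPKM in FDX1-OE ES against 12.9 in FDX1-OE DMSO, with 16.5 in control ES against 13.1 in control DMSO, and reads shared with a near-identical copy make the SDHA level uncertain. SDHB and SDHD had log2 fold changes of 0.08 and -0.01, neither called. SDHD shares exon bases with TIMM8B on the other strand.

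Complex III passes electrons from ubiquinol to cytochrome c. UQCRFS1, the Rieske iron-sulfur protein, measured 24.9 and 26.8 FPKM in FDX1-OE ES against 33.3 and 36.5 in FDX1-OE DMSO, with 32.9 and 30.9 in control ES against 33.5 and 33.8 in control DMSO. UQCRFS1 was below every other library in FDX1-OE ES and fell by 0.42 ± 0.07 on the log2 scale against FDX1-OE DMSO (adjusted p = 0.00156). Its pseudogene row UQCRFS1P1 averaged 6.19 FPKM, so reads may be split between them. UQCRH, the hinge protein near cytochrome c1, measured 138 and 153 FPKM in FDX1-OE ES against 190.1 and 196 in FDX1-OE DMSO, with 195 and 209 in control ES against 184 and 184 in control DMSO. The 2 lowest libraries were those of FDX1-OE ES, and the log2 fold change was -0.41 ± 0.07 (adjusted p = 0.00108). UQCR11, a small subunit, measured 32.3 and 39.4 FPKM in FDX1-OE ES against 44.2 and 43.9 in FDX1-OE DMSO, with 42.6 and 42.5 in control ES against 44.5 and 41.9 in control DMSO. It fell by 0.30 ± 0.09 (adjusted p = 0.0205), and the call was lost without either FDX1-OE DMSO library, where the log2 fold change was -0.29 and -0.30, and with equal FPKM totals (-0.16). The UQCR11 call was also lost with no filter on low values and with only the groups compared. The other 6 genes were not called. They were the core proteins UQCRC1 (0.11) and UQCRC2 (-0.06), CYC1, cytochrome c1 (0.03), and the small subunits UQCRB (-0.28), UQCR10 (-0.21) and UQCRQ (-0.06).

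Complex IV passes electrons to oxygen, and its nuclear subunits surround a core encoded by mitochondrial DNA. COX6B1, which lies on the intermembrane side, measured 105 and 114 FPKM in FDX1-OE ES against 199.8 and 183 in FDX1-OE DMSO, with 177 and 164 in control ES against 183 and 183 in control DMSO. Both FDX1-OE ES values lay well below the other 6, and COX6B1 fell by 0.80 ± 0.07 (adjusted p = 7.02e-05). COX4I1, a regulatory subunit, measured 136 and 169.9 FPKM in FDX1-OE ES against 255 and 268 in FDX1-OE DMSO, with 227 and 211 in control ES against 263 and 239 in control DMSO. COX4I1 also did not overlap any other group and fell by 0.78 ± 0.10 (adjusted p = 0.000415). COX7C measured 115 and 136 FPKM in FDX1-OE ES against 169.9 and 163 in FDX1-OE DMSO, with 168 and 178 in control ES against 159.9 and 159 in control DMSO. It is a small subunit and fell by 0.415 ± 0.08 (adjusted p = 0.00277), again with both FDX1-OE ES libraries lowest. COX7B, another small subunit, measured 25.2 and 28.3 FPKM in FDX1-OE ES against 39.6 and 40.1 in FDX1-OE DMSO, with 50.2 and 41.0 in control ES against 37.8 and 58.3 in control DMSO. The control DMSO replicates of COX7B were far apart. Its log2 fold change of -0.56 ± 0.18 (adjusted p = 0.0256) lost its call without FDX1-OE ES replicate 1 (-0.48) and without either FDX1-OE DMSO library (-0.57 and -0.55), and with equal FPKM totals (-0.42). The COX7B call was also lost with library weights and with no filter on low values. COX5A fell by 0.24 (adjusted p = 0.0140), a call lost without FDX1-OE DMSO replicate 2 (-0.21) and with equal FPKM totals (-0.10).

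COX7A2L was the complex IV gene called higher. It resembles COX7A2 and is known as a factor that helps complexes III and IV join into supercomplexes. COX7A2L measured 40.7 and 39.8 FPKM in FDX1-OE ES against 33.0 and 31.3 in FDX1-OE DMSO, with 35.8 and 36.5 in control ES against 29.6 and 30.3 in control DMSO. Each elesclomol pair lay above its DMSO pair, and COX7A2L was higher by 0.32 ± 0.06 (adjusted p = 0.00244) in FDX1-OE cells and by 0.26 ± 0.06 (adjusted p = 0.0395) in control cells. After median-ratio scaling its value in FDX1-OE cells was -0.01, while it stayed called under the other 17 settings. COX7A2 itself had a log2 fold change of 0.01, not called. COX7A2L made up 41.9% and 37.9% of the summed FPKM of the pair in FDX1-OE ES against 33.5% and 36.1% in FDX1-OE DMSO, with 32.7% and 32.6% in control ES against 30.3% and 32.6% in control DMSO. COX5B (-0.16), COX6A1 (-0.01), COX6C (-0.19) and COX8A (-0.14) were not called. The 6 tissue-restricted isoforms of complex IV were at or near 0, with a highest value of 0.0407 FPKM in any library.

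**Figure D2:**
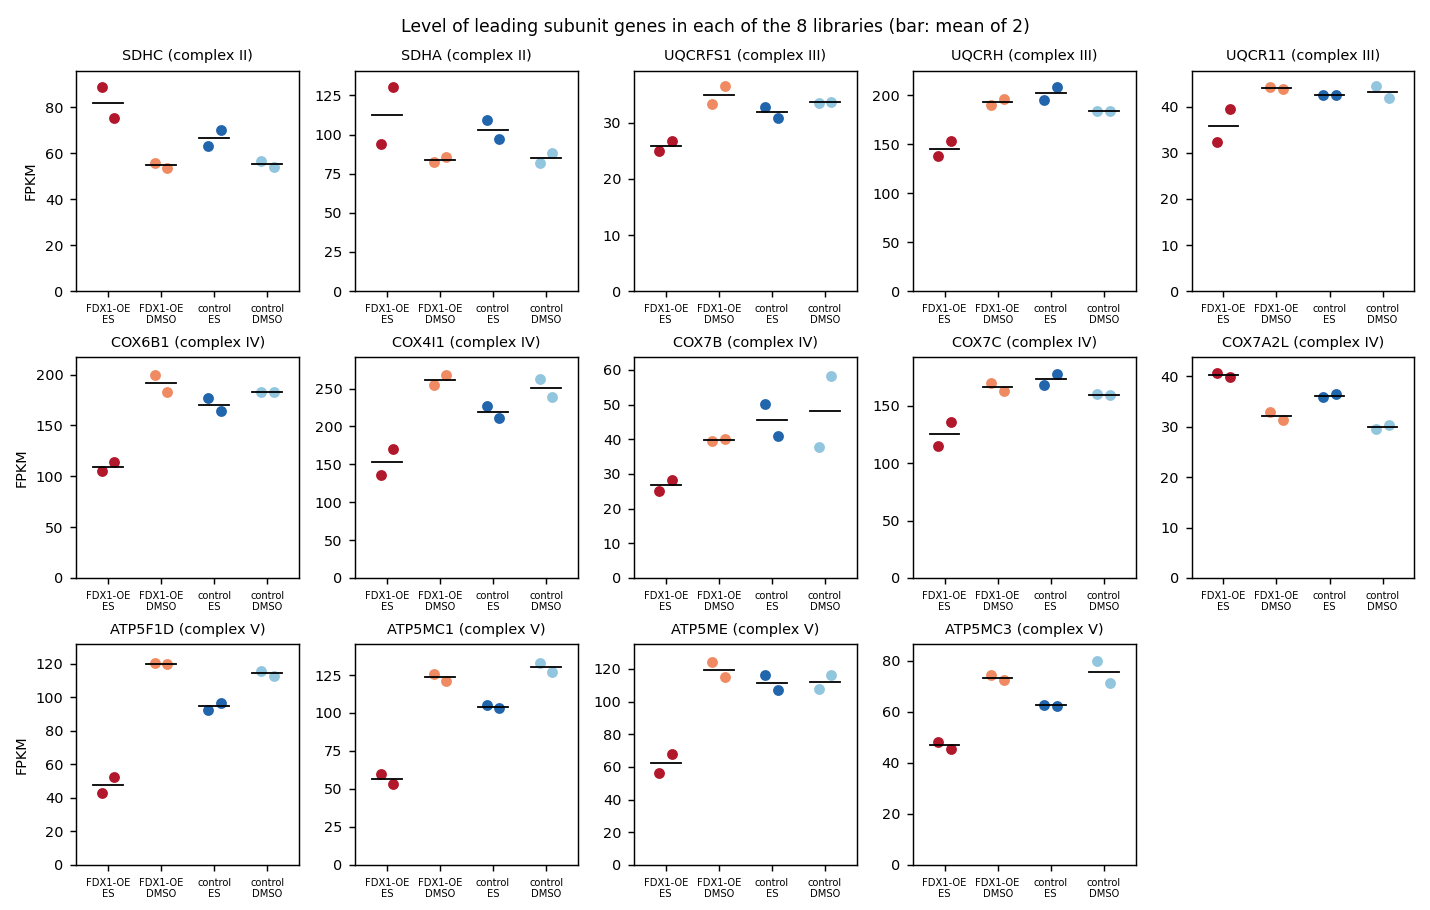
FPKM of the 14 members with the largest called changes in each complex, in each of the 8 libraries (points) with the mean of 2 per group (bar); each panel starts at 0. ATP5F1D, ATP5MC1, ATP5ME and COX6B1 sat lowest in FDX1-OE ES, and SDHC and COX7A2L sat highest there.

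Complex V has a catalytic head, a central stalk that turns inside it, a rotating ring of c subunits in the membrane, a peripheral stalk that holds the head still, and further membrane subunits. In the central stalk, ATP5F1D measured 43.1 and 52.5 FPKM in FDX1-OE ES against 120.3 and 119.9 in FDX1-OE DMSO, with 92.4 and 96.8 in control ES against 116 and 113 in control DMSO. This was the largest change among the 39 members: -1.32 ± 0.09 (adjusted p = 2.2e-05), with the groups well apart. The other central stalk genes were not called, ATP5F1C at -0.12 and ATP5F1E at -0.23. In the catalytic head, ATP5F1B, the beta subunit, measured 478 and 469 FPKM in FDX1-OE ES against 592 and 610.4 in FDX1-OE DMSO, with 597 and 602 in control ES against 606 and 615 in control DMSO. It was the most abundant member in every library and fell by 0.345 ± 0.05 (adjusted p = 0.000678), but after quantile normalisation its log2 fold change was 0.02. ATP5F1A, the alpha subunit, fell by 0.50 ± 0.13 (adjusted p = 0.0126). That call was lost without FDX1-OE ES replicate 2 (-0.45) and without either FDX1-OE DMSO library (-0.50 and -0.49). It was also lost after quantile normalisation (-0.295), with library weights and with no filter on low values.

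The 3 genes of the c ring encode the same mature protein behind different import sequences. ATP5MC1 measured 59.9 and 53.5 FPKM in FDX1-OE ES against 126 and 121 in FDX1-OE DMSO, with 105 and 103 in control ES against 133 and 127 in control DMSO. It fell by 1.11 ± 0.07 (adjusted p = 1.52e-05), and the 2 elesclomol groups did not overlap their DMSO groups. ATP5MC3 measured 48.3 and 45.4 FPKM in FDX1-OE ES against 74.4 and 72.3 in FDX1-OE DMSO, with 62.7 and 62.3 in control ES against 79.8 and 71.1 in control DMSO, and fell by 0.64 ± 0.07 (adjusted p = 0.000174). ATP5MC2 measured 138 and 158 FPKM in FDX1-OE ES against 177 and 176 in FDX1-OE DMSO, with 183 and 186 in control ES against 165 and 168 in control DMSO. ATP5MC2 fell by less, 0.25 ± 0.07 (adjusted p = 0.0137), and was not called without either FDX1-OE DMSO library (-0.245 and -0.26), with equal FPKM totals (-0.11) or after quantile normalisation (-0.03). Its call was also lost with only the groups compared. ATP5MC1 gave 24.3% and 20.8% of the 3 genes' FPKM in FDX1-OE ES and 33.3% and 32.8% in FDX1-OE DMSO, while ATP5MC2 gave 56.1% and 61.6% in FDX1-OE ES and 47.0% and 47.6% in FDX1-OE DMSO. In control cells ATP5MC2 gave 52.1% and 53.0% in ES and 43.6% and 45.9% in DMSO. These shares were not tested.

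Among the membrane subunits, ATP5ME measured 56.3 and 68.0 FPKM in FDX1-OE ES against 124 and 115 in FDX1-OE DMSO, with 116 and 107 in control ES against 108 and 116 in control DMSO. ATP5ME helps the synthase form dimers. It fell by 0.935 ± 0.10 (adjusted p = 0.000127), with no overlap between FDX1-OE ES and any other group. ATP5MF fell by 0.27 and ATP5MG by 0.33 (adjusted p = 0.00512 and 0.00523). The ATP5MF call was lost with equal FPKM totals (-0.13) and quantile normalisation (-0.03), and the ATP5MG call with equal FPKM totals (-0.18). In the peripheral stalk, ATP5PD measured 48.0 and 56.1 FPKM in FDX1-OE ES against 78.3 and 79.2 in FDX1-OE DMSO, with 69.8 and 67.8 in control ES against 74.3 and 73.3 in control DMSO. ATP5PD fell by 0.59 ± 0.08 (adjusted p = 0.00035). ATP5PB fell by 0.24 (adjusted p = 0.0229), a call lost without FDX1-OE ES replicate 2 (-0.16) and without FDX1-OE DMSO replicate 1 (-0.18), and with equal FPKM totals (-0.10). The ATP5PB call was also lost after quantile normalisation (-0.23), with no filter on low values and with only the groups compared. The other stalk genes ATP5PF (-0.06) and ATP5PO (-0.03) were not called. Strand handling is not given, and ATP5PB shares 350 exon bases with WDR77 on the other strand, whose level was 62.7% of its own. ATP5PD likewise shares 340 exon bases with KCTD2 (15.4% of its level) and ATP5ME 579 with MYL5 (4.08%).

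**Figure D3:**
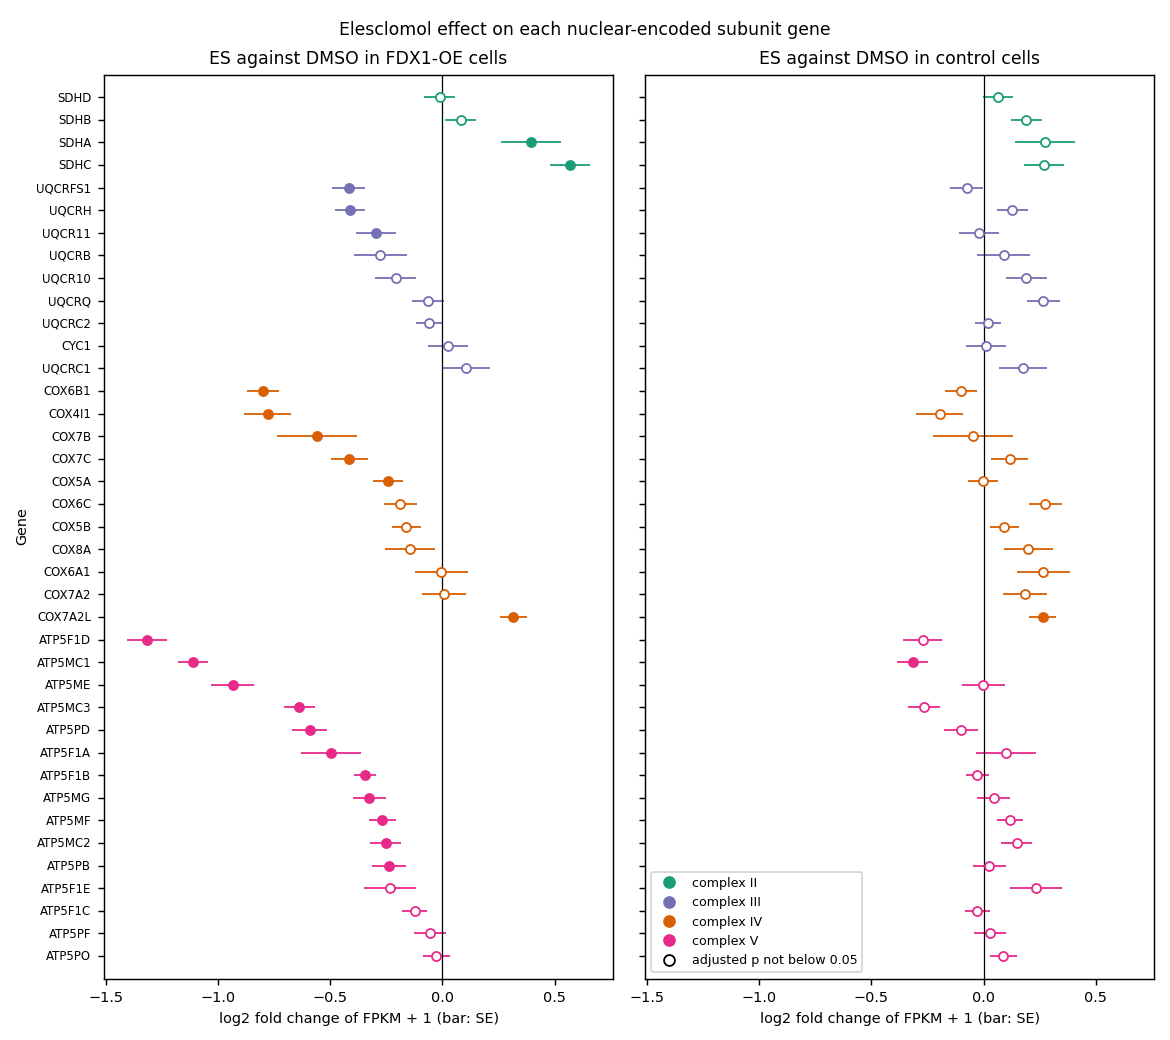
Log2 fold change of FPKM + 1 (± SE) between ES and DMSO for each member, in FDX1-OE cells (left) and control cells (right), coloured by complex; filled points have an adjusted p below 0.05. Complex V genes reach down to -1.32 in FDX1-OE cells and to -0.32 in control cells.

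The members of a complex spread widely, from -1.32 to -0.03 in complex V. Level did not order them: across the 39 members, the correlation of mean level and log2 fold change was -0.12 (Pearson) and -0.09 (Spearman), given as a description over genes that share the same libraries. Of the 22 members called, 11 stayed called under all 18 alternative settings. These were SDHC, UQCRFS1, UQCRH, COX4I1, COX6B1, COX7C, ATP5F1D, ATP5MC1, ATP5MC3, ATP5ME and ATP5PD. Set beside the promoter motifs, 10 of the 22 members with any match were called lower and 1 higher, and 5 of the 9 with none were called lower and 1 higher. By motif, 4 of the 12 members with the NRF1 motif, 8 of the 15 with the ETS motif and 1 of the 6 with the YY1 motif were called lower. Of all 31 members with a window, 15 were called lower and 2 higher. Over all genes tested 13.7% were called lower and 47.1% higher, and 35.6% of the abundant ones were called lower. Whether the motifs bear on the calls was not tested.

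**Figure D4:**
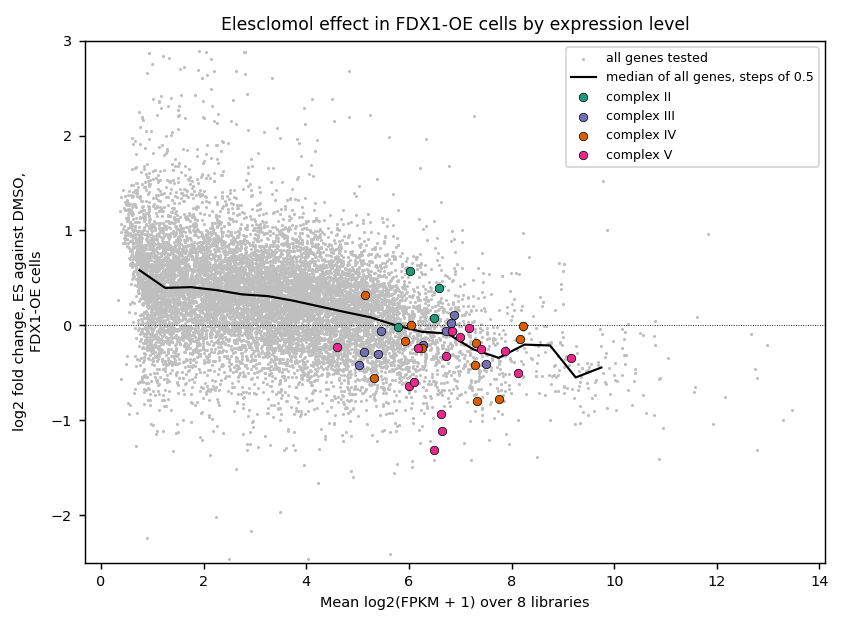
Log2 fold change between FDX1-OE ES and FDX1-OE DMSO against mean log2(FPKM + 1) for all 12063 genes tested (grey, with the running median in black) and the 39 members by complex; 36 genes lie outside the vertical range. The running median falls with level, and ATP5F1D, ATP5MC1 and ATP5ME lie lowest among the members.

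In control cells few members were called between ES and DMSO, which does not show that the others were unchanged. COX7A2L was called higher and ATP5MC1 lower, 1 member each way, while 6.74% of all genes tested were called higher and 1.00% lower. ATP5MC1 fell by 0.32 ± 0.07 (adjusted p = 0.0327). Neither call held when any control or FDX1-OE DMSO library was left out; the values without each then ranged between 0.25 and 0.28 for COX7A2L and between -0.35 and -0.285 for ATP5MC1. The members' median log2 fold change was 0.09, and that of all genes tested was also 0.09. After median-ratio scaling 0 members were higher and 3 lower. At an unadjusted p below 0.05 there were 8 of the 39 members and 3305 of the 12063 genes. The complex V sum was 2378 FPKM in control ES and 2380 FPKM in control DMSO.

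Under elesclomol, many members had lower levels in FDX1-OE cells than in control cells. In FDX1-OE ES, 25 members were lower and 1, SDHC, higher than in control ES, while 10.4% of all genes tested and 30.1% of the abundant ones were called lower, and 31.1% of all were called higher. With equal FPKM totals, 13 members were lower and 2 higher. The members' median log2 fold change was -0.30, against 0.16 over all genes. Complex V had 12 of 15 lower, complex IV 8 of 11, complex III 5 of 9 and complex II 0 of 4. This comparison shares the FDX1-OE ES and control ES libraries with those above. The largest differences were in ATP5F1D (-0.98 ± 0.09), ATP5MC1 (-0.87 ± 0.07) and ATP5ME (-0.84 ± 0.10). SDHC was higher by 0.29 ± 0.09 (adjusted p = 0.0317), a call lost without FDX1-OE ES replicate 1 (0.17), control ES replicate 1 (0.22) or either FDX1-OE DMSO library (0.29), and after median-ratio scaling (0.08). The SDHC call was also lost with no filter on low values, library weights, no mean-variance trend or only the groups compared. These 10 members stayed called under all 18 settings: UQCRH, COX4I1, COX6B1, COX6C, COX7C, ATP5F1D, ATP5MC1, ATP5MC3, ATP5ME and ATP5PD. Without control ES replicate 2, 13 members were called lower in place of 25.

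Without elesclomol no member was called between FDX1-OE and control cells. In DMSO, 0 of 39 members were called, with 1 gene called of all tested (0.00829%), which is FDX1 (log2 fold change 2.345 ± 0.07, adjusted p = 2.69e-06). At an unadjusted p below 0.05 there were 0 members and 420 genes. The members' log2 differences ranged from -0.23 (COX7B) to 0.17 (ATP5F1A), with a median of 0.03. A p that misses the threshold does not show that the levels are equal.

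The effect of elesclomol differed between FDX1-OE and control cells for 14 members, all more negative in FDX1-OE cells. This is the interaction, the ES effect in FDX1-OE cells minus that in control cells. Of all genes tested, 5.06% had a called interaction below 0 and 13.9% one above 0, and of the abundant genes 16.7% had one below 0. The members' median was -0.34, against 0.15 over all genes. Complex V gave 9 of the 14, complex IV 4, complex III 1 and complex II 0. After scaling to equal FPKM totals, 7 were below 0 and 1 above. ATP5F1D (-1.05), ATP5ME (-0.93), ATP5MC1 (-0.79) and COX6B1 (-0.70) stayed called under all 17 settings. COX6C measured 129 and 147 FPKM in FDX1-OE ES against 160.0 and 154 in FDX1-OE DMSO, with 178 and 194 in control ES against 153 and 153 in control DMSO. It lay below its DMSO level in FDX1-OE cells and above it in control cells, with an interaction of -0.46 ± 0.11 (adjusted p = 0.0218), not called with equal FPKM totals (-0.33) or quantile normalisation (-0.35). ATP5MF measured 199 and 212 FPKM in FDX1-OE ES against 244 and 251 in FDX1-OE DMSO, with 241 and 258 in control ES against 231 and 229 in control DMSO. Its interaction was -0.39 ± 0.09 (adjusted p = 0.0203), not called with equal FPKM totals (-0.25) or quantile normalisation (-0.18). With no filter on low values, the interactions of COX6C and ATP5MF were not called either. Leaving out any control or FDX1-OE DMSO library reduced the 14 to between 4 and 6.

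Genes that act with these complexes were read against the same shares of all genes tested, 47.1% higher and 13.7% lower with a median of 0.25, in FDX1-OE ES against FDX1-OE DMSO. For abundant genes the share lower was 35.6%, with a median of -0.05. Of 40 assembly factors, 15 were higher and 9 lower, with a median of -0.025 (log2). Among those with the smallest p were COA8 (0.70) and ATPAF2, which helps build the head of complex V (0.63), both higher, and PET100 (-0.86) and COA4 (-0.52), both complex IV factors and both lower. Of 7 further subunits and partners, 5 were lower and 0 higher, including ATP5MD (-0.46), a small complex V subunit, NDUFA4 (-0.34), now counted with complex IV, the ATP synthase inhibitor ATP5IF1 (-0.36), and cytochrome c, CYCS (-0.385). Of 12 tested regulators of respiratory genes, 6 were lower and 1 higher (median -0.23). POLRMT, the mitochondrial RNA polymerase, measured 15.7 and 18.0 FPKM in FDX1-OE ES, against 31.2 and 32.1 in FDX1-OE DMSO (-0.88). ESRRA (-0.60), PPRC1 (-0.40) and PPARGC1B (-0.44) were also lower. In control cells the median of the 12 regulators was -0.18, against 0.09 over all genes, and 0 were called. Over all genes tested 6.74% were called higher there and 1.00% lower. The interaction was called below 0 for 2 of the 12 and above 0 for 0, against 5.06% and 13.9% of all genes.

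The mitochondrially encoded partners of these subunits were lower too. All 6 were lower in FDX1-OE ES than in FDX1-OE DMSO, from MT-CO3 (-1.32), MT-CO1 (-0.995), MT-CO2 (-0.89) and MT-CYB (-0.70) to MT-ATP6 (-0.55) and MT-ATP8 (-0.46). Their summed FPKM was 30748 ± 5134 in FDX1-OE ES, 54694 ± 1008 in FDX1-OE DMSO, 46805 ± 1824 for control ES and 54105 ± 206 in control DMSO (SD, n = 2 each). The ratio of FDX1-OE ES to FDX1-OE DMSO was 0.562 for these mitochondrial genes, 0.758 for complex V, 0.816 for complex IV, 0.899 for complex III and 1.22 for complex II nuclear genes. No call was made in control cells for the 6 genes, where the most negative value was -0.465 (MT-CO3, adjusted p = 0.0711).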

How the data were processed

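Per the labels' protocols, TRIzol was used for RNA and the VAHTS Universal V6 kit for libraries. The deposited files give 1 FPKM value per gene symbol and library. No header names the unit, which was read from the values, and the tool that made the FPKM is not given in the sources used here. Per the submitters' processing notes, HISAT2, HTSeq, R 3.2.0 and hg19 were used, with no roles given. Absolute depth and strand handling are not given, so no counting interval is stated.

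A gene was tested if 2 or more libraries reached 1 FPKM, which left 12063. Values were log2(FPKM + 1), which understates the change of low genes. In limma 3.58.1 (R 4.3.3) the 8 libraries entered as 4 group means, with the trend option on, leaving 4 residual and adding 4.25 prior degrees of freedom. The tests were two-sided, with Benjamini-Hochberg adjustment in each of 5 comparisons. The fit was tested on simulated data in which all groups had the same spread. That test did not cover the wider spread of the FDX1-OE ES replicates. Exon overlaps are from GENCODE 29 (GRCh38) and promoters from RefSeq (GRCh38.p14), matched by symbol only. Alternatives covered the pseudocount (0.1), the filter, 3 scalings, library weights, the trend, the groups fitted, the replicate numbers and leaving out each library.

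The members, lists and rule for named genes were chosen with earlier results of these data known. Library values are given for up to 4 called members of each complex with the largest change in FDX1-OE cells, every member called higher and up to 12 members called in the interaction, and each other list names the 4 genes with the smallest p. The 6 mitochondrial genes are all named, 2 of them chosen after their values were seen.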

Additional observations from a re-analysis of the deposited data

Results flagged for a closer look

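The effect of elesclomol differed between FDX1-OE and control cells for 14 members, by limma's test of the interaction over all genes. Of all genes tested, 5.06% had a called interaction below 0 and 13.9% one above 0. Of the abundant genes, 16.7% had one below 0. Only 4 of the 14 stayed called under every alternative setting: ATP5F1D, ATP5ME, ATP5MC1 and COX6B1. In complex V the interaction (log2, ES effect in FDX1-OE cells minus that in control cells) was -1.05 for ATP5F1D, -0.93 for ATP5ME, -0.79 for ATP5MC1, -0.49 for ATP5PD, -0.40 for ATP5MC2, -0.39 for ATP5MF, -0.37 for ATP5MC3, -0.37 for ATP5MG and -0.32 for ATP5F1B. In complex IV it was -0.70 for COX6B1, -0.58 for COX4I1, -0.53 for COX7C and -0.46 for COX6C. In complex III it was -0.54 for UQCRH. Groups of 2 libraries are too small for a test of single outlying samples.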

How the results depend on the processing

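Depth is not given, so its limit cannot be stated; with 2 libraries per group the spread rests on values shared across groups, and a group left with 1 library is assumed to vary like the others. In FDX1-OE cells (ES against DMSO), 3 members higher and 19 lower became 4 and 12 with equal FPKM totals and 1 and 35 with median-ratio scaling; leaving out a library gave 2 to 6 higher (6 without FDX1-OE ES replicate 1) and 14 to 24 lower. In control cells, 1 higher became 0 with no filter, median-ratio scaling, quantile normalisation, no mean-variance trend or the replicate block, 6 with library weights and 7 with only the groups compared, and 0 to 10 when a library was left out. There 1 lower became 0 with no filter, quantile normalisation or no trend, 3 with median-ratio scaling, weights or only the groups compared, and 0 to 3 when a library was left out. For FDX1-OE against control in ES, 1 higher became 0 with no filter, median-ratio scaling, weights, no trend or only the groups compared, 2 with equal totals, and 0 to 1 when a library was left out. There 25 lower became 13 with equal totals, 15 with only the groups compared, and 13 to 28 when a library was left out (13 without control ES replicate 2). For the interaction, 0 higher became 1 with equal totals and 0 to 1 when a library was left out, and 14 lower became 5 with no filter, 7 with equal totals, 27 with median-ratio scaling, and 4 to 24 when a library was left out (24 without FDX1-OE ES replicate 2). The cause was not tested, beyond the scaling moving the median of all genes.

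Turned signs of members are listed only where the main or the alternative fit called the member, and all were in FDX1-OE cells. They were SDHB (-0.254), CYC1 (-0.311), COX7A2 (-0.326) and COX7A2L (-0.014) with median-ratio scaling, and ATP5F1B (0.017) with quantile normalisation. COX6A1 turned without FDX1-OE ES replicate 1 (0.196, with -0.207 to 0.196 over the libraries left out). Sign changes with no call on either side are left out, as for ATP5PO in FDX1-OE cells (4 of 18 settings). The members' median in control cells also turned with median-ratio scaling (-0.044).

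With the replicate block, members higher and lower numbered 3 and 21 in FDX1-OE cells, 0 and 1 in control cells, 1 and 24 for FDX1-OE against control in ES, 0 and 0 in DMSO, and 0 and 15 for the interaction. Deviations of same-numbered replicates correlated between groups at -0.05 to 0.08, so no shared effect of replicate number was seen. These correlations cannot show how the libraries were grown or paired.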

Other observations

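The nuclear-encoded subunits of complex I, which oxidises NADH and feeds complex III, were examined beside those of complexes II to V. Of 37 tested, 17 were lower and 5 higher in FDX1-OE ES than in FDX1-OE DMSO, with a median log2 fold change of -0.215. Over all genes tested 13.7% were lower and 47.1% higher, with a median of 0.25. Over the abundant genes 35.6% were lower, with a median of -0.05. The 4 with the smallest p were NDUFB8 (-0.92), NDUFA13 (-0.56), NDUFS5 (-0.63) and NDUFB10 (-0.71), all lower. Their summed FPKM was 2032 ± 163 in FDX1-OE ES against 2554 ± 0.115 in FDX1-OE DMSO, with 2587 ± 37.9 in control ES against 2514 ± 62.4 in control DMSO (SD, n = 2 each). In control cells 1 was called higher and 0 lower, while 6.74% of all genes tested were called higher and 1.00% lower.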
